A study of Mus musculus with 12 samples.

Results

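The interaction of genotype and organ was measured across all 12 arrays of the series, that is, the knockout effect in hearts (KO/HT minus WT/HT) less the knockout effect in kidneys (KO/KID minus WT/KID). All 12 of 12 arrays entered, 3 in each of 4 groups, which were PAI-1 knockout hearts (KO/HT), wildtype hearts (WT/HT), PAI-1 knockout kidneys (KO/KID) and wildtype kidneys (WT/KID). Every mouse was C57BL/6 and 12 months old, and no group received a treatment. The knockout removes PAI-1 from the whole animal and not from one organ, and the labels state that the organs came from 3 knockout and 3 wildtype mice, which the sex-linked transcripts described below contradict. Neither the sex of the mice nor the hour at which the organs were taken is given in the sources used here. Total RNA was labeled with biotin and measured on Illumina mouse bead arrays, on which a gene is read by a single probe or by several. Levels are log2 of the quantile normalized signal. A positive interaction means that the knockout effect was more positive in hearts than in kidneys, which holds both for genes higher in KO/HT and for genes lower in KO/KID.

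PAI-1 inhibits the proteases uPA and tPA, which turn plasminogen into plasmin, and so slows the breakdown of fibrin and matrix. Several genes below belong to the circadian clock. In that loop CLOCK and BMAL1 (the product of Arntl) bind E-box sequences and switch on Per, Cry, Nr1d1, Ciart and the D-box factors Dbp and Tef. The PER, CRY and CIART proteins in turn repress CLOCK and BMAL1. The product of Nr1d1 represses Arntl itself, and Arntl and targets such as Dbp peak at opposite times of day in organs such as heart and kidney. Immediate early genes such as Egr1 form another group described below. They are transcribed within minutes of a stimulus, without new protein synthesis.

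The E-box is written CACGTG, which reads the same on both strands, and is shown here because clock genes led the named results. RefSeq (GRCm38.p6) gave promoter windows of 300 bases around the start for 13 of the 15 clock genes with a value, and 3 of these genes, Ciart, Per1 and Tef, held an E-box. Of all 32851 windows 7.15% held one, and among the 9090 genes with a value and a window the share was 11.7%. The D-box, searched as TTATGTAA and TTACATAA, was held by 1 clock gene (Per3), against 0.759% of genes with a value and 0.938% of all windows. Fbxl22, whose interaction ran the other way, is shown beside them because its window also held an E-box, downstream of the start. Capitals mark the E-boxes, each line runs 5′ to 3′ on the strand of the gene, and a match is a description of the letters only.
Ciart, chr3:95882179-95882478, minus strand, E-boxes at -116, -58 and -44 from the start: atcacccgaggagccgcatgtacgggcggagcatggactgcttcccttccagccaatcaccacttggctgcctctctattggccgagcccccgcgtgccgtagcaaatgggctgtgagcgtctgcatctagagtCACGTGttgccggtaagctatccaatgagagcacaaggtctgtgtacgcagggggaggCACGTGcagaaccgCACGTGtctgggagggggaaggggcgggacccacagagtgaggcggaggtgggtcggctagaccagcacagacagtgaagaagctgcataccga
Per1, chr11:69098699-69098998, plus strand, E-box at -166: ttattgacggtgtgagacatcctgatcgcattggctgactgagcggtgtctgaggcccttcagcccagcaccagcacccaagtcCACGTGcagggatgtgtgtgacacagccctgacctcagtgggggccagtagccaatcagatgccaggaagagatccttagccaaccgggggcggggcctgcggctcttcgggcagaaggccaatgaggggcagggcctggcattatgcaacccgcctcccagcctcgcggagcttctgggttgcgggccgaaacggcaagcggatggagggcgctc
Tef, chr15:81802423-81802722, plus strand, E-box at -127: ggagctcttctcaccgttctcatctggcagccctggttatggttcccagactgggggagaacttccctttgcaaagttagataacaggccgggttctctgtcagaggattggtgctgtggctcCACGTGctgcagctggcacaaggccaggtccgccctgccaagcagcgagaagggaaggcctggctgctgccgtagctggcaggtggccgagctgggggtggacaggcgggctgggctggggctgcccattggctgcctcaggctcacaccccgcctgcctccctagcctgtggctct
Fbxl22, chr9:66514544-66514843, minus strand, E-box at 20: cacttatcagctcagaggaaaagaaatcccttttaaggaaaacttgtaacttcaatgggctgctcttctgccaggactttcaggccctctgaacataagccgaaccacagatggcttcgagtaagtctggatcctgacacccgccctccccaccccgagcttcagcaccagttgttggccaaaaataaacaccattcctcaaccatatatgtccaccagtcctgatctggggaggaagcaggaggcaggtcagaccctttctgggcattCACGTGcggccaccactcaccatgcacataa

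Of 45281 probes, 19780 were tested because 1 or more arrays detected them (detection p-value under 0.01), and they named 11244 genes. From 14281 to 16080 probes were detected per array. The organs matched their labels. The 12 measured cardiomyocyte markers averaged 13.2 to 13.4 log2 in KO/HT and 13.2 to 13.3 log2 in WT/HT, and at most 6.83 log2 in every kidney, while the 10 proximal tubule markers averaged 12.2 to 12.3 log2 in the kidneys of both genotypes. Transcripts of the sex chromosomes did not match between the organs. Xist, which is transcribed from the inactive X chromosome of females, was detected in KO/HT 2 and 3 and in WT/HT 1, 2 and 3. Eif2s3y, a Y-linked gene, was detected in KO/HT 1 and in all 6 kidneys. At least 5 of the 6 hearts therefore carried a pattern that no kidney carried and cannot have come from the mice of the kidneys. Same-numbered organs are thus not pairs, and an interaction of genotype and organ cannot be told apart from one of genotype and sex. Within hearts only KO/HT 1 carried the Y-linked transcript, so the heart effect itself was not balanced for sex. Of 7 measured genes known to differ by sex in mouse kidneys, 2 had a positive and 2 a negative interaction at an unadjusted p under 0.05. That is 57.1% of the list beside 9.01% of all genes. At the same threshold 2 were higher and 2 lower in KO/KID and 0 differed in hearts, although all 6 kidneys carried the Y-linked transcript. The cause of these kidney differences was not tested. Odc1, the polyamine enzyme, stood at 0.71 ± 0.19 log2 (SE).

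The test of the interaction called 20 of 19780 probes (0.101%) at an adjusted p under 0.05 (limma, Benjamini and Hochberg), of which 11 were positive and 9 negative. At an adjusted p under 0.1 there were 31, and at an unadjusted p under 0.05 there were 1757 (8.88%), 877 positive and 880 negative. Over genes, each with the value of its brightest detected probe, 5 (0.0445%) passed the adjusted and 1013 (9.01%) the unadjusted threshold, 539 positive (4.79%) and 474 negative (4.22%). Within the organs, 13 probes (0.0657%) passed in hearts, 4 higher and 9 lower in KO/HT, and 108 (0.546%) in kidneys, 48 higher and 60 lower in KO/KID. At an unadjusted p under 0.05 the effect passed for 938 genes in hearts (8.34%) and for 1159 in kidneys (10.3%). Over all tested probes the effect in hearts and the effect in kidneys correlated at r = -0.0047, across probes that are not independent replicates. The splits depended on the scaling. With each array only centred on its median, the median kidney effect moved by 0.12 log2, kidney calls split into 2455 higher and 89 lower in KO/KID, and interaction calls into 5 positive and 13 negative. With neqc background correction the heart calls split into 11 higher and 10 lower in KO/HT. Without KO/HT 1, the heart that carried the Y-linked transcript, 21 probes were called for the interaction, of which 15 were among the 20. Without WT/HT 2, WT/HT 3 or WT/KID 2 the count was 7 in each case, and it was 12 without WT/HT 1 or KO/KID 2.

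The 20 called probes were mostly kidney differences. In 14 of them the knockout effect had an unadjusted p under 0.05 in kidneys only, in 2 in hearts only, in 3 in both organs with opposite signs, and in 1 in both organs with the same sign. The KO and WT arrays did not overlap in kidneys for 20 of 20 (17.2% of all probes) and in hearts for 7 (10.5% of all probes). Of the 20, 7 probes named 5 genes, Ciart, Haghl, Hsd3b2, Apob and Fbxl22, and 13 probes were unnamed in the annotation. In 7 of the 20, Apob among them, no heart gave a detected signal, and 2 were detected in no kidney.

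**Figure D1:**
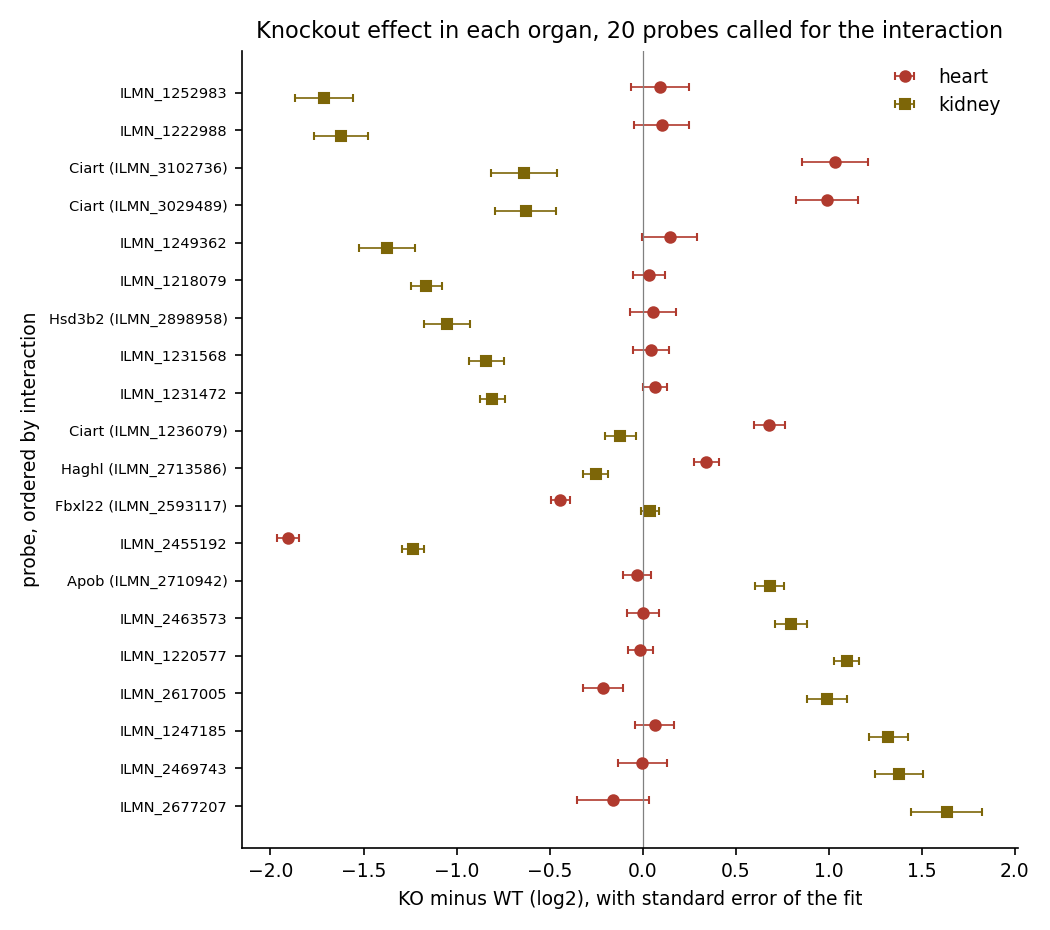
Knockout effect (KO minus WT, log2, horizontal axis) in hearts (circles) and in kidneys (squares) for each of the 20 probes called for the interaction, with the standard error of the fit. Most circles lie near 0 while their squares do not, the 3 Ciart probes and Haghl lie on both sides of 0, and 1 unnamed probe (ILMN_2455192) lies below 0 in both organs.

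Ciart, the circadian repressor, was higher in KO/HT and lower in KO/KID than in wildtype organs. Its levels were 7.68, 8.18 and 8.52 log2 in KO/HT, against 7.11, 7.29 and 6.88 log2 in WT/HT. In kidneys they were 6.83, 6.51 and 6.72 log2 in KO/KID, against 7.22, 7.46 and 7.30 log2 in WT/KID. Groups did not overlap in either organ, and KO/HT 1 was the lowest of the KO/HT arrays. The difference was 1.03 ± 0.18 log2 (SE) in hearts and -0.64 ± 0.18 log2 in kidneys, which gave an interaction of 1.67 ± 0.25 log2 (adjusted p = 0.0305, limma). Neither organ passed on its own for this probe (adjusted p = 0.0759 in hearts and 0.177 in kidneys). The 2 other Ciart probes were called as well, at 1.62 and 0.80 log2. The probe at 0.80 log2 was detected in no kidney, so that its value rests on the hearts, where it rose by 0.68 log2 (adjusted p = 0.0105). The Ciart call held without KO/HT 1, KO/HT 3 or KO/KID 1 and was lost without any 1 of the other 9 arrays, where the adjusted p reached 0.104, with values from 1.48 to 1.93 log2 over the 12 omissions.

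Other clock genes stood on the same sides without passing the adjusted test. Usp2, a ubiquitin protease under clock control, had 11.25, 11.64 and 11.63 log2 in KO/HT, against 11.24, 11.06 and 11.06 log2 in WT/HT. In kidneys Usp2 had 10.86, 11.02 and 11.04 log2 in KO/KID, against 11.36, 11.54 and 11.72 log2 in WT/KID. Its groups did not overlap in either organ, although KO/HT 1 and WT/HT 1 were almost level, and its interaction was 0.96 ± 0.16 log2 (adjusted p = 0.0568). It passed without KO/HT 1 (1.08 log2, adjusted p = 0.0138) and without WT/KID 1 (1.06 log2, adjusted p = 0.0431). Dbp, the D-box activator, had 11.35, 12.28 and 12.17 log2 in KO/HT, against 11.42, 11.25 and 10.75 log2 in WT/HT. In kidneys Dbp had 11.20, 9.75 and 10.68 log2 in KO/KID, against 11.76, 11.70 and 11.36 log2 in WT/KID. Its kidney groups did not overlap, in hearts KO/HT 1 lay below WT/HT 1, and its spread was wide, with an interaction of 1.86 ± 0.47 log2 (adjusted p = 0.248).

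Per2, a repressor of the loop, had 7.86, 8.59 and 7.99 log2 in KO/HT, against 7.43, 7.52 and 7.46 log2 in WT/HT. In kidneys Per2 had 8.18, 7.67 and 7.80 log2 in KO/KID, against 8.12, 8.38 and 8.16 log2 in WT/KID. Hearts were apart and kidneys overlapped through KO/KID 1, and the interaction was 1.01 ± 0.24 log2 (adjusted p = 0.214). Per1, another repressor, differed in hearts and hardly in kidneys, with 9.07, 8.80 and 8.97 log2 in KO/HT, against 8.34, 8.41 and 8.24 log2 in WT/HT, and its kidney difference was 0.10 log2. Arntl, which codes for the activator BMAL1, went the other way. It had 7.30, 6.71 and 6.87 log2 in KO/HT, against 7.30, 7.28 and 7.70 log2 in WT/HT. In kidneys Arntl had 6.83, 7.16 and 6.88 log2 in KO/KID, against 6.76, 6.79 and 6.77 log2 in WT/KID, where the groups did not overlap, and the interaction was -0.65 ± 0.21 log2 (adjusted p = 0.385).

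**Figure D2:**
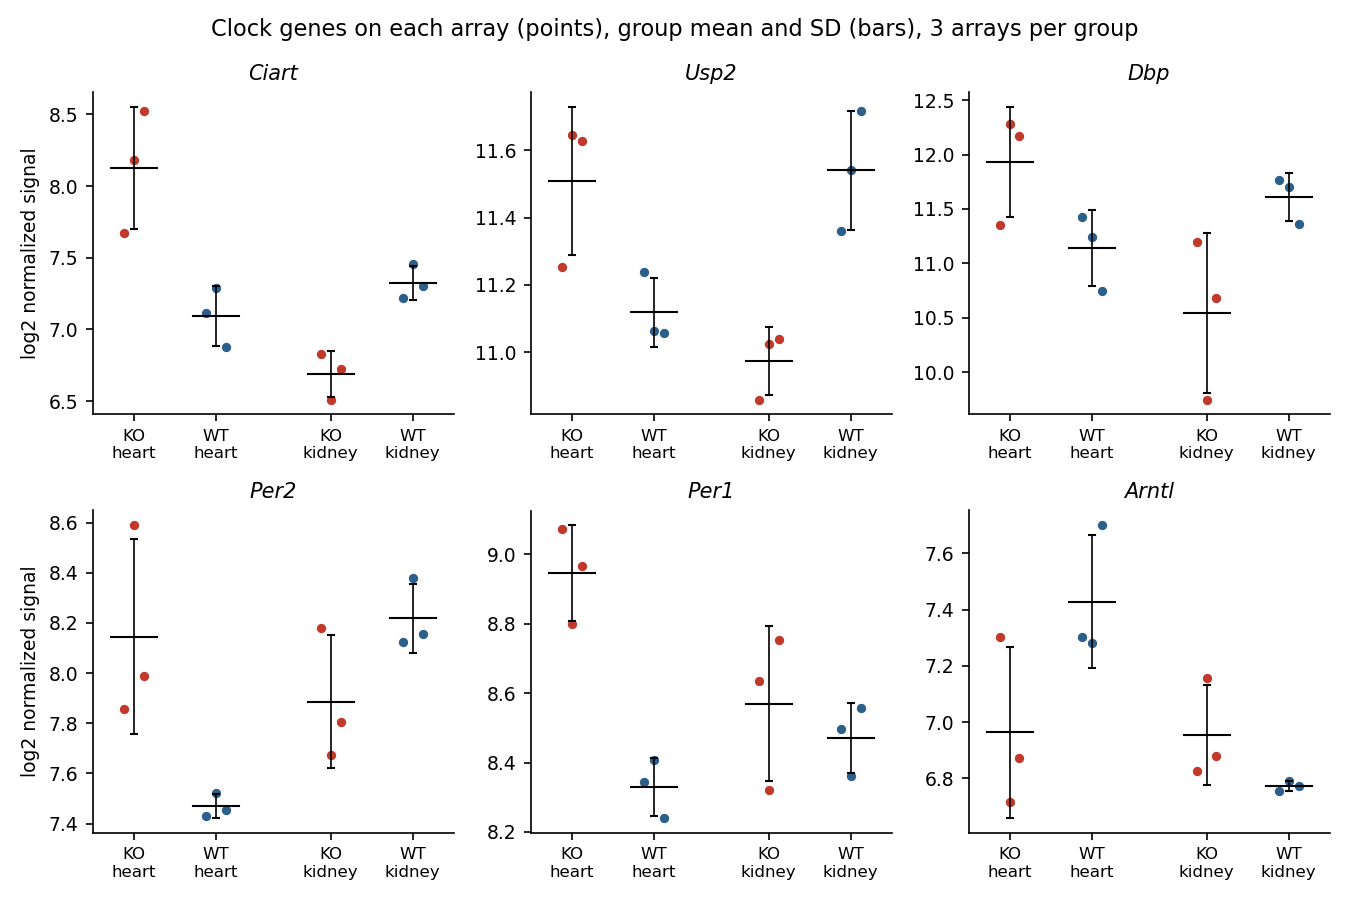
Log2 normalized signal of 6 clock genes on each array (points, vertical axes that do not start at 0), with group mean and SD (bars, 3 arrays per group), KO beside WT within each organ. Ciart, Usp2 and Dbp are higher in knockout hearts and lower in knockout kidneys on average, Per1 differs mainly in hearts, and Arntl lies lower in knockout hearts and higher in knockout kidneys.

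Of the 22 genes listed for the clock and the D-box factors, 15 had a detected probe. At an unadjusted p under 0.05, 7 of them had a positive interaction (Ciart, Usp2, Per2, Dbp, Per1, Tef and Cry2) and 1 a negative one (Arntl), which is 53.3% of the list beside 9.01% of all genes. The median interaction was 0.40 log2 (0.21 in hearts and -0.13 in kidneys), beside 0.003 log2 over all genes. Clock (-0.22 log2), the partner of BMAL1, and Rora (-0.24 log2), which activates Arntl, were the other negative members, and neither passed. The nuclear receptors Nr1d1 and Nr1d2, which repress Arntl, stood at 0.40 and 0.42 log2 without passing. Between 5 and 10 members had a positive and 1 or 2 a negative interaction when 1 array was left out, with 5 without WT/HT 3 or KO/KID 2 and 10 without KO/KID 1, and 12 of 15 were above 0 in each of these fits. With arrays only centred on their median the counts were 4 positive and 3 negative. Of the 15, Ciart passed the adjusted test.

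Haghl, a relative of the glyoxalase enzyme that clears methylglyoxal adducts, was the other called gene with opposite signs. It had 8.79, 8.87 and 8.65 log2 in KO/HT, against 8.50, 8.44 and 8.35 log2 in WT/HT. In kidneys Haghl had 9.22, 9.07 and 9.18 log2 in KO/KID, against 9.43, 9.46 and 9.36 log2 in WT/KID. Groups did not overlap in either organ, by small steps, and the interaction was 0.60 ± 0.10 log2 (adjusted p = 0.0456). A second Haghl probe gave 0.41 log2 (adjusted p = 0.245) and the last one -0.05 log2. The call held without KO/HT 3 and was lost without any 1 of the other 11 arrays (adjusted p up to 0.146).

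Hsd3b2 and Apob were called through their kidneys. Hsd3b2 belongs to the 3-beta-hydroxysteroid dehydrogenases, enzymes of steroid synthesis, and fell in KO/KID. It had 10.24, 10.59 and 10.55 log2 in KO/KID, against 11.28, 11.65 and 11.59 log2 in WT/KID (adjusted p = 0.00178), while its hearts overlapped, at 10.12, 9.92 and 9.79 log2 in KO/HT, against 9.999, 9.76 and 9.91 log2 in WT/HT. The kidney level fell by 1.05 log2 and the interaction was 1.11 ± 0.17 log2 (adjusted p = 0.0353). The Hsd3b genes are near-identical copies, and the 5 other Hsd3b2 probes gave interactions between -0.28 and 0.21 log2 and were detected in no heart, so which transcript this probe measured is uncertain. The call held without KO/HT 3 or WT/KID 1 and was lost without any 1 of the other 10 arrays (adjusted p up to 0.143). Apob codes for the structural protein of chylomicrons and low-density lipoprotein, and rose in KO/KID. It had 9.29, 9.43 and 9.20 log2 in KO/KID, against 8.46, 8.68 and 8.73 log2 in WT/KID (adjusted p = 0.00136). Its hearts were below detection, at 6.46 to 6.51 log2 in KO/HT and 6.49 to 6.54 log2 in WT/HT, so the interaction of -0.71 ± 0.11 log2 (adjusted p = 0.0305) rests on the kidneys. It held without KO/KID 3, WT/KID 1 or WT/KID 3 and was lost without any 1 of the other 9 arrays (adjusted p up to 0.124). Among 14 measured lipoprotein genes, Apob was the 1 with an unadjusted interaction p under 0.05 (7.14%), and among 13 measured hydroxysteroid dehydrogenases Hsd3b2 was the 1 (7.69%). Both shares were near the 9.01% of all genes.

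Fbxl22, an F-box protein of the cardiac Z-disc, was the called gene of the hearts. It fell in KO/HT, with 7.78, 7.71 and 7.65 log2, against 8.09, 8.17 and 8.20 log2 in WT/HT (adjusted p = 0.00794). In kidneys it was not detected, at 6.496 to 6.53 log2 in KO/KID and 6.45 to 6.48 log2 in WT/KID. The interaction of -0.48 ± 0.07 log2 (adjusted p = 0.0305) thus rests on the hearts, and the call held without KO/HT 1 or WT/HT 1 and was lost without any 1 of the other 10 arrays (adjusted p up to 0.124). Spon2, a secreted matrix protein, was similar in pattern just outside the threshold. It fell in KO/HT, with 9.005, 8.55 and 8.94 log2, against 9.49, 9.85 and 9.64 log2 in WT/HT (adjusted p = 0.0197), and its kidney difference was 0.08 log2. Its interaction was -0.91 ± 0.16 log2 (adjusted p = 0.0683), and it passed without KO/HT 1 (-1.002 log2, adjusted p = 0.0464) or KO/HT 2 (-0.77 log2, adjusted p = 0.0418).

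Unnamed probes had the 10 smallest adjusted p-values of the interaction. ILMN_1220577 had 7.60, 7.82 and 7.75 log2 in KO/KID, against 6.52, 6.71 and 6.65 log2 in WT/KID, and no heart detected it (-1.11 ± 0.09 log2, adjusted p = 0.00104). ILMN_1218079 was the reverse, with 6.61, 6.91 and 7.02 log2 in KO/KID, against 7.98, 8.03 and 8.02 log2 in WT/KID (1.20 ± 0.12 log2, adjusted p = 0.00401). The kidney groups lay far apart beside their spread in both, and the hearts lay between 6.46 and 6.70 log2. In all, 6 unnamed probes were higher in KO/KID and 6 were lower. ILMN_2455192 differed from these, since it fell in both organs. It was detected in no knockout array, at 6.399 to 6.47 log2 in KO/HT and 6.48 to 6.57 log2 in KO/KID, against 8.24 to 8.41 log2 in WT/HT and 7.71 to 7.81 log2 in WT/KID. It was at least 3.16-fold lower in KO/HT (adjusted p = 8.85e-09) and at least 2.17-fold lower in KO/KID (adjusted p = 1.03e-06) than in the wildtype organs, a bound that sets knockout arrays at the lowest detected signal, so its interaction of -0.67 ± 0.08 log2 (adjusted p = 0.0098) compares 2 lower bounds. These 3 probes and ILMN_1231472, ILMN_1247185 and ILMN_1222988, were called in each of the 12 fits that left out 1 array.

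Opposite signs with an unadjusted p under 0.05 in both organs were found for 66 probes (0.334%), 38 of them higher in knockout hearts and lower in knockout kidneys and 28 the reverse, and the same sign for 110 probes (0.556%). At that threshold 1589 of 19780 probes passed in hearts and 2000 in kidneys. Whether the count of opposite probes exceeds what 2 unrelated effects would give was not tested. Over genes there were 35 opposite (0.311%), 26 higher in KO/HT and lower in KO/KID and 9 the reverse, and 61 with the same sign, 30 higher and 31 lower in both. Of all probes, 167 (0.844%) had groups apart in both organs with opposite signs and 197 with the same sign. Only 4 probes were called in both organs separately, and all 4 had the same sign. The count of 66 moved between 39 and 121 when 1 array was left out (39 without KO/KID 2 and 40 without WT/KID 2, 113 without KO/HT 1 and 121 without KO/HT 2).

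The opposite genes with the smallest interaction p were, after Ciart, Haghl and Usp2, the genes Ss18, Fbxo30, Csrnp1, Csnk1d and Nipal2. Ss18, a subunit of the BAF chromatin remodeler, rose in KO/KID, with 9.31, 9.27 and 9.29 log2, against 9.02, 8.96 and 8.94 log2 in WT/KID (adjusted p = 0.0379). In hearts Ss18 had 9.33, 9.48 and 9.29 log2 in KO/HT, against 9.58, 9.59 and 9.46 log2 in WT/HT, where KO/HT 2 and WT/HT 3 overlap, and the interaction was -0.49 ± 0.08 log2 (adjusted p = 0.0588). It passed without KO/HT 2 (-0.55 log2, adjusted p = 0.0286). Fbxo30, an F-box protein, gave -0.54 log2, with KO/HT 8.51 to 8.61 log2, against 8.75 to 8.96 log2 in WT/HT, and KO/KID 7.73 to 7.89 log2, against 7.52 to 7.72 log2 in WT/KID. Csnk1d, the casein kinase that phosphorylates PER proteins, had 8.22, 8.15 and 8.38 log2 in KO/HT, against 7.95, 8.04 and 8.07 log2 in WT/HT. In kidneys Csnk1d had 8.07, 8.04 and 8.08 log2 in KO/KID, against 8.23, 8.28 and 8.28 log2 in WT/KID. Groups of Fbxo30 and Csnk1d stood apart in both organs, by small steps, and neither gene passed the test (adjusted p = 0.108 and 0.135). Csrnp1, a nuclear protein induced by growth signals, gave 0.64 log2 (adjusted p = 0.135). Nipal2 gave 0.39 log2 (adjusted p = 0.135), but it was detected in 1 of 3 KO/HT and 0 of 3 WT/HT arrays, so the sign of its heart difference is not above background. Among the remaining genes were Mt2, the metal-binding metallothionein (0.38 log2), Cyp7b1, the oxysterol hydroxylase (0.30 log2), Lmna, the nuclear lamin (0.56 log2), Lamc1, a laminin chain (0.49 log2), and Atp1b2, a sodium pump subunit (-0.37 log2). None of these passed the adjusted interaction test (limma, adjusted p from 0.196 for Atp1b2 to 0.336 for Lmna).

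Other genes changed alike in both organs. Trim56, a ubiquitin ligase of antiviral defense, fell in both, by 0.49 log2 in hearts (adjusted p = 0.0197) and by 0.53 log2 in kidneys (adjusted p = 0.00297), and its interaction was 0.04 log2. Taf6, a subunit of the TFIID initiation complex, fell by 1.17 log2 in hearts and by 0.93 log2 in kidneys, with an interaction of -0.24 log2 (adjusted p = 0.567). Its KO/KID levels of 6.63, 6.53 and 6.60 log2 lay near background, so its kidney fall may be understated and the size of its interaction is uncertain.

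**Figure D3:**
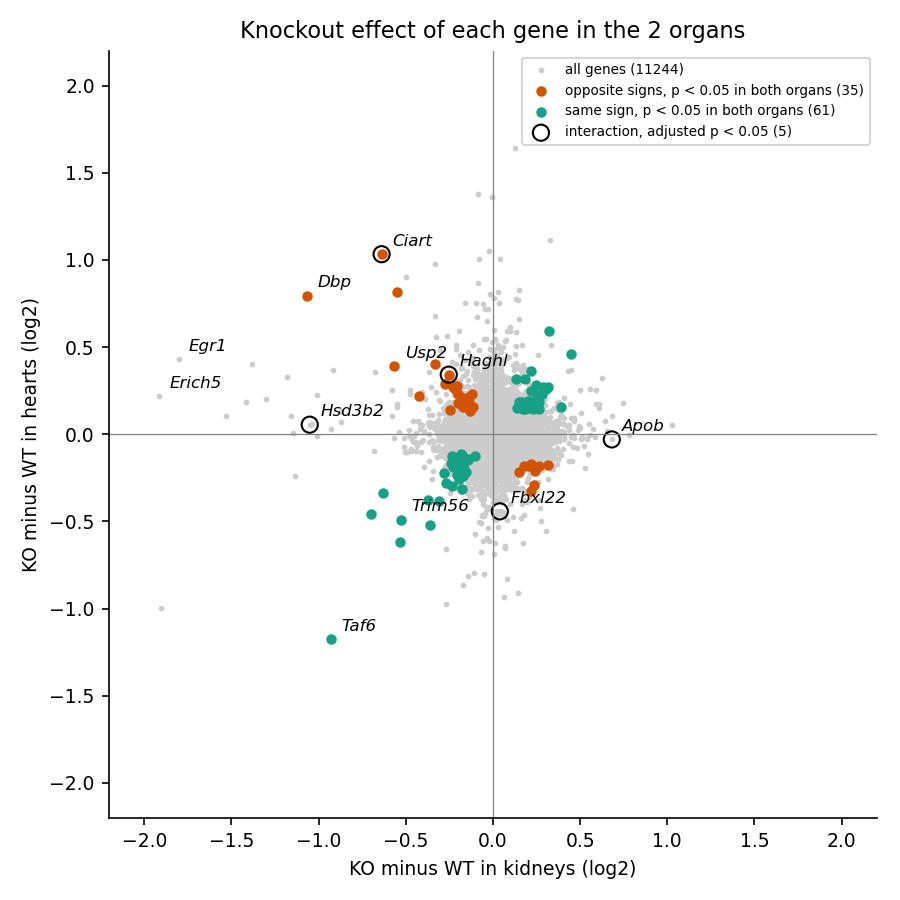
Knockout effect of each gene in kidneys (horizontal axis, KO minus WT, log2) and in hearts (vertical axis, KO minus WT, log2). The 35 genes with opposite signs lie in the upper left and lower right quadrants, the 61 same-sign genes in the lower left and upper right, and rings mark the 5 genes called for the interaction.

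By the rule for naming, 6 genes that passed in 1 organ and leaned the same way in the other were examined for a difference in size. Hpd, an enzyme of tyrosine breakdown, rose in KO/KID, with 8.83, 8.56 and 8.68 log2, against 8.07, 8.21 and 8.14 log2 in WT/KID (adjusted p = 0.00278). Hpd was detected in no heart, so the sign and size of its heart difference are not above background. Mrps17, a mitochondrial ribosomal protein, and Pgam2, the muscle form of phosphoglycerate mutase, fell in KO/KID by 0.47 and 0.57 log2 (adjusted p = 0.00205 and 0.00733), with heart differences of -0.08 and -0.02 log2. Nipsnap2, a mitochondrial protein whose gene neighbors Mrps17, fell in KO/HT by 0.81 log2 (adjusted p = 0.0126), with a kidney difference of -0.15 log2. Nmral1 and Strip2 rose in KO/HT by 0.51 and 0.37 log2 (adjusted p = 0.0217 and 0.0333), with kidney differences of 0.03 and 0.05 log2. The interaction of none of these 6 passed the adjusted test (adjusted p from 0.127 to 0.214), although Nmral1 passed without KO/HT 2 (0.57 log2, adjusted p = 0.0286).

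At an unadjusted p under 0.05, 4 of 16 measured immediate early genes, mostly transcription factors, were lower in KO/KID. So were 5 of 18 measured feedback regulators. Of all 11244 genes 619 were lower there. In KO/HT, 1 of these 16 genes and 3 of these feedback regulators were higher, beside 477 of all 11244 genes. The median effects of the 16 genes were 0.07 log2 in hearts and -0.08 log2 in kidneys. Egr1, a zinc finger transcription factor and the largest interaction of a gene among those with an unadjusted p under 0.01, fell in KO/KID, with 8.62, 7.94 and 8.62 log2, against 9.92, 10.16 and 10.52 log2 in WT/KID (adjusted p = 0.0363). In hearts Egr1 had 10.70, 9.98 and 10.54 log2 in KO/HT, against 10.85, 9.41 and 9.66 log2 in WT/HT, where the groups overlap. The interaction was 2.24 ± 0.47 log2 (adjusted p = 0.135), and it passed without WT/HT 1, the highest of the WT/HT arrays (2.68 log2, adjusted p = 0.0265). Zfp36, which destabilizes cytokine mRNA, had 9.62, 9.17 and 9.36 log2 in KO/KID, against 10.09, 10.36 and 10.73 log2 in WT/KID, with overlapping hearts and an interaction of 1.23 log2. Junb (1.28 log2), Ier3 (1.04 log2) and Dusp1, the phosphatase that switches off MAP kinases (0.998 log2), had kidney groups that did not overlap as well, and Ier3 passed without KO/HT 1 (1.29 log2, adjusted p = 0.0413). Phlda1, a pleckstrin domain protein, differed through the hearts instead, with 10.12, 9.82 and 10.36 log2 in KO/HT, against 9.15, 9.52 and 9.03 log2 in WT/HT, a kidney difference of -0.08 log2, and an interaction of 0.95 log2 (adjusted p = 0.135). It passed without KO/HT 2 (1.09 log2, adjusted p = 0.0418).

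Of 24 listed immediate early genes, mostly transcription factors but with others such as Ier3, 16 were measured. Of these, 3 (18.8%, beside 9.01% of all genes) had a positive and 0 a negative interaction at an unadjusted p under 0.05. Their median was 0.22 log2 over the 16 and lay between 0.13 and 0.32 log2 when 1 array was left out. Fos (0.44 log2) and Jun (0.37 log2), the subunits of AP-1, were among those that did not pass. Of 21 feedback regulators 18 were measured, with 5 positive (Phlda1, Zfp36, Dusp1, Ccn1 and Gadd45g), 1 negative (Zfp36l1, at -0.34 log2), together 33.3%, and a median of 0.19 log2. All 12 genes listed as induced by glucocorticoids were measured, with 4 positive (Mt2, Mt1, Per1 and Dusp1, 33.3%), 0 negative and a median of 0.13 log2. When 1 array was left out there were 0 or 1 negative and the median lay between 0.055 log2 (without WT/HT 1) and 0.20 log2, and with arrays only centred on their median 2 were positive and 2 negative. Of these, Per1 and Dusp1 also stand in other lists, and Fkbp5 (0.27 log2) and Tsc22d3 (-0.02 log2), both induced by the glucocorticoid receptor, did not pass. No member of these 3 lists passed the adjusted interaction test.

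Among the 8 genes with the largest positive interaction were 5 with the same lowest and highest kidney array, Erich5, Rhbdl2, Zxda, Ccdc144b and Srr. Erich5 had 7.67, 7.79 and 8.50 log2 in KO/KID, against 8.88, 10.99 and 9.84 log2 in WT/KID. Rhbdl2, a rhomboid protease, had 7.89, 7.97 and 8.60 log2 in KO/KID, against 8.77, 10.32 and 9.52 log2 in WT/KID. Srr, which makes D-serine, had 9.998, 10.17 and 11.001 log2 in KO/KID, against 10.99, 12.47 and 11.94 log2 in WT/KID. In each of the 5 genes KO/KID 1 was lowest and WT/KID 2 highest, and no organ passed on its own. Their interactions were 2.13, 1.79, 1.64, 1.51 and 1.60 log2, in the order named, with adjusted p from 0.223 to 0.331, and without WT/KID 1 the genes Rhbdl2 (2.16 log2, adjusted p = 0.0431), Erich5 (2.63 log2, adjusted p = 0.0481) and Zxda (2.11 log2, adjusted p = 0.0206) passed. Of 67 probes with a kidney range of at least 1.5 log2, 15, Erich5 included, correlated with Erich5 at r of at least 0.95 over the 6 kidneys, a description chosen after the values were seen. They named 10 genes, among them Prf1, the perforin of cytotoxic lymphocytes, Ifngr2, an interferon gamma receptor chain, and the ribosomal protein gene Rpl23, while their range over the 6 hearts was at most 0.95 log2. The 5 measured lymphocyte markers, which include Prf1, averaged 6.81 to 7.01 log2 in KO/KID, against 6.95 to 7.29 log2 in WT/KID, and the part of these cells in the pattern was not tested. Fewer cells of a type and less RNA per cell cannot be told apart in whole organs.

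**Figure D4:**
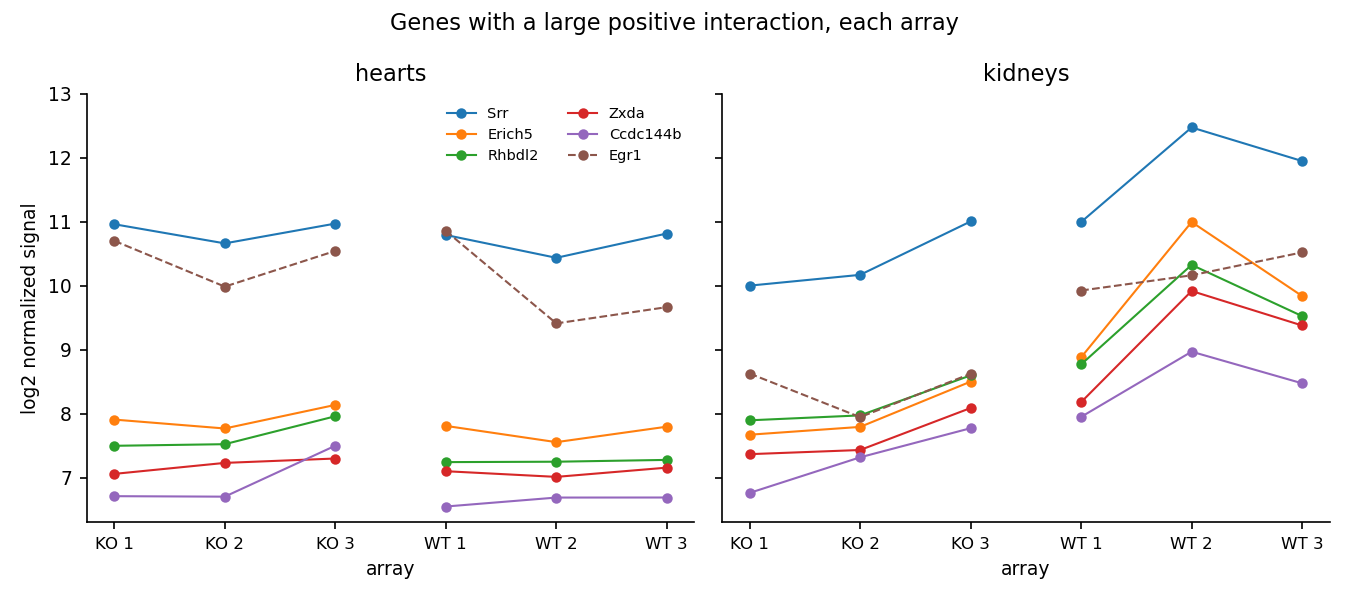
Log2 normalized signal of 5 genes that share their lowest and highest kidney array and of Egr1 (dashed) on each array, hearts in one panel and kidneys in the other, KO beside WT. Lines join the arrays of a group for reading only. The 5 genes vary less in hearts and spread widely in kidneys, with WT/KID 2 highest, and Egr1 parts the kidney groups in another order.

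The largest negative interactions among genes with an unadjusted p under 0.01 were, besides Spon2 and Apob, those of Acot1, Abcc4, Whrn, Itgb6, Amy1 and Myl9. Acot1, which releases fatty acids from coenzyme A, had 9.72, 9.27 and 8.59 log2 in KO/HT, against 9.75, 10.11 and 10.45 log2 in WT/HT, and 11.69 to 12.05 log2 in KO/KID, against 11.60 to 11.83 log2 in WT/KID. Heart groups did not overlap, narrowly between KO/HT 1 and WT/HT 1, and the interaction was -1.05 ± 0.34 log2 (adjusted p = 0.384). Whrn, a scaffold protein of stereocilia, fell in KO/HT, with 8.51, 8.75 and 8.19 log2, against 9.29, 9.38 and 9.37 log2 in WT/HT (adjusted p = 0.0438), and its interaction was -0.70 log2. Abcc4, an efflux transporter, leaned both ways, at 8.995, 8.86 and 9.06 log2 in KO/KID, against 8.21, 8.38 and 8.73 log2 in WT/KID, and at 7.92 to 8.05 log2 in KO/HT, against 8.13 to 8.20 log2 in WT/HT (-0.72 log2, adjusted p = 0.135). It passed without WT/KID 3 (-0.87 log2, adjusted p = 0.0118). Itgb6, Amy1 and Myl9 gave -0.68, -0.72 and -0.70 log2 (adjusted p from 0.295 to 0.342). Of 19 measured targets of PPAR-alpha and fasting, among them Acot1, Acot2 and Plin5, 3 had a negative and 1 (Fabp3) a positive interaction at an unadjusted p under 0.05 (21.1%, beside 9.01% of all genes), with a median of -0.13 log2. The median was -0.04 log2 without KO/HT 3, and without WT/HT 1 there were 5 negative.

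Cardiac stress genes had positive interactions throughout, carried by the hearts. All 13 measured of 16 listed were above 0, beside 5723 of all 11244 genes, with a median of 0.53 log2 (0.41 in hearts and -0.02 in kidneys). Where a member had no detected kidney signal, as for Nppa, its kidney difference is background and its interaction rests on the hearts. An unadjusted p under 0.05 was reached by 4 (Uchl1, Pi16, Nppa and Rcan1), which is 30.8% of the list beside 9.01% of all genes. None passed the adjusted test. Nppa, the atrial natriuretic peptide, had 13.87, 13.04 and 14.74 log2 in KO/HT, against 11.33, 13.03 and 13.16 log2 in WT/HT, with no detected signal in kidneys and an interaction of 1.46 ± 0.63 log2 (adjusted p = 0.538). Myh7, the slow myosin heavy chain, had 8.70, 8.01 and 10.03 log2 in KO/HT, against 7.94, 7.65 and 7.98 log2 in WT/HT (1.08 log2). KO/HT 3 was the highest heart in both genes. Without KO/HT 3 the median of the list was 0.23 log2, with 11 of 13 above 0, and the number of positive genes at an unadjusted p under 0.05 moved between 1 (without WT/HT 1, KO/KID 2, KO/KID 3, WT/KID 1 or WT/KID 2) and 8 (without KO/HT 2). The 5 measured atrial markers, Nppa among them, averaged 8.82 to 9.30 log2 in KO/HT, against 8.35 to 8.82 log2 in WT/HT, with Nppa and Dkk3 (0.68 log2) above 0 and Stard10 (-0.22 log2), Myl7 and Myl4 (-0.04 log2 each) below 0 for the interaction, and the part of atrial tissue in these values was not tested.

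Genes of the matrix and its turnover varied in direction. Of 24 measured matrix genes Fbln2, a fibulin, had a positive interaction (0.68 log2), and Spon2 and Ogn, a small leucine-rich proteoglycan, a negative one at an unadjusted p under 0.05 (12.5%, beside 9.01% of all genes). The median was 0.14 log2 with 19 of 24 above 0, but -0.02 log2 with 11 of 24 above 0 without KO/HT 3, and without KO/HT 2 there were 6 positive. Ogn rose in KO/KID, with 8.91, 8.93 and 8.91 log2, against 8.46, 8.44 and 8.34 log2 in WT/KID (adjusted p = 0.0182), and its heart difference was -0.02 log2. Its interaction of -0.53 log2 (adjusted p = 0.165) passed without KO/HT 1 (-0.62 log2, adjusted p = 0.045). The collagen genes Col1a1 (0.48 log2), Col1a2 (0.12 log2) and Col3a1 (0.12 log2) did not pass. Of 14 metalloproteinases and TIMPs, Timp1 and Mmp2 (0.59 log2) were positive and Timp4 (-0.44 log2) negative (21.4% of the list). Timp1, an inhibitor of metalloproteinases, had 7.87, 8.09 and 9.73 log2 in KO/HT, against 7.35, 7.58 and 7.83 log2 in WT/HT, and 6.90, 6.76 and 6.997 log2 in KO/KID, against 7.21, 7.07 and 7.37 log2 in WT/KID. Groups stood apart in both organs with opposite signs, KO/HT 3 lay far above the other hearts, and the interaction was 1.31 ± 0.50 log2 (adjusted p = 0.478). The Timp1 interaction lay between 0.73 and 1.67 log2 when 1 array was left out. Of 9 measured genes of the plasminogen system S100a10, a plasminogen receptor subunit, was positive (0.36 log2), while Plat (-0.40 log2) and Plau (-0.23 log2), the genes of tPA and uPA, did not pass. The list's median of 0.10 log2 was -0.03 log2 with arrays only centred on their median. Of 21 TGF-beta genes, Tgfbr3 (-0.38 log2) and Tgfbr1 (-0.20 log2) were negative at that threshold, with a median of 0.004 log2, and their share of 9.52% was near the 9.01% of all genes.

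MHC class II genes, which present antigen, leaned negative without passing. Of 11 measured, 10 were below 0, with a median of -0.33 log2 (-0.25 in hearts and 0.04 in kidneys), and 0 had an unadjusted p under 0.05 at the brightest probe. H2-Ab1 stood at -0.49 log2 there, and its 2 other probes, at -0.99 and -0.56 log2, had an unadjusted p under 0.05. H2-Eb1 had 9.11, 9.82 and 9.67 log2 in KO/HT, against 10.32, 9.65 and 10.11 log2 in WT/HT, with overlap through WT/HT 2 (-0.58 log2, adjusted p = 0.562). Without WT/HT 2, 6 of the 11 had an unadjusted p under 0.05. Of 20 measured genes of the unfolded protein response, Ddit3 (0.37 log2) was positive and Sdf2l1 (-0.47 log2) negative at that threshold, a share near the 9.01% of all genes, and a second Ddit3 probe gave 0.10 log2. Of 14 measured cytosolic heat shock genes, Hspb8 (0.40 log2) was positive and Cryab, a small heat shock protein of muscle, negative (-0.52 log2).

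**Figure D5:**
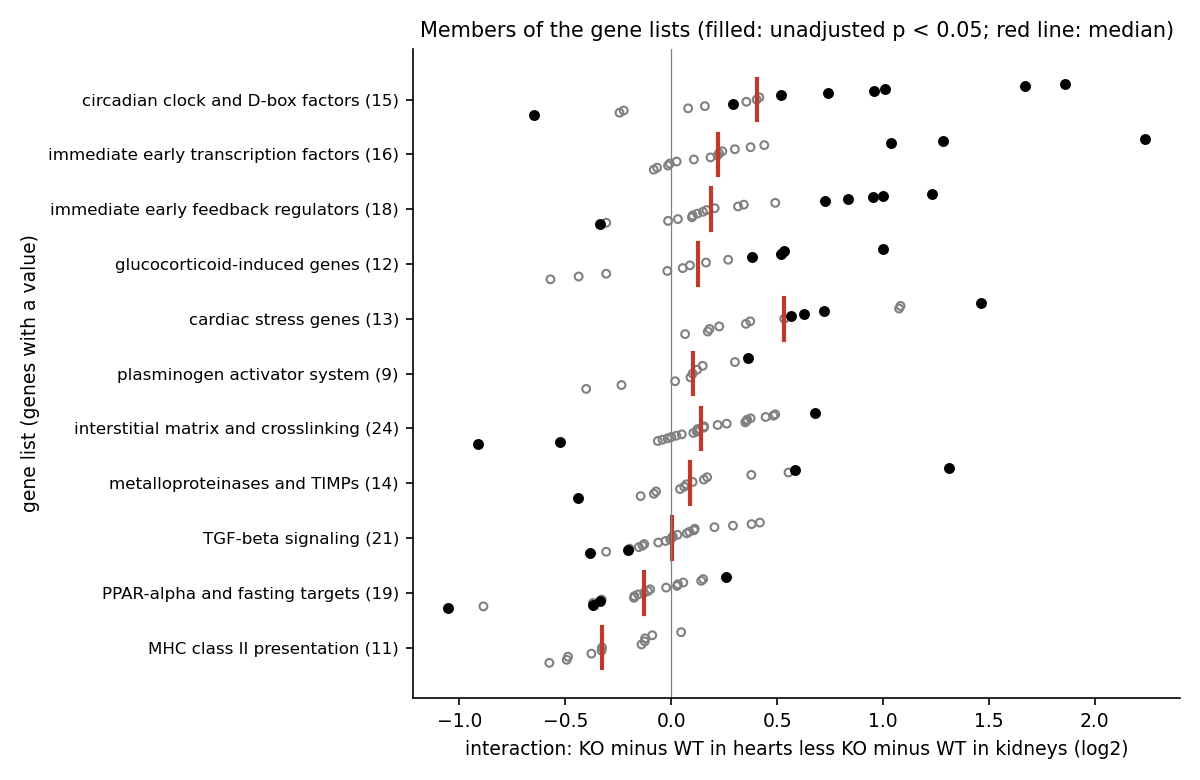
Interaction (log2, horizontal axis) of the measured members of 11 gene lists, with the number of measured members beside each name, filled points at an unadjusted p under 0.05 and the median as a vertical bar. Clock and cardiac stress genes lie mostly above 0 and MHC class II genes mostly below, and several genes stand in more than 1 list.

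Of the genes that the study measured by PCR, Egr1, Dbp and Timp1 are described above. Ankrd1, a stress protein of cardiac muscle, had 13.71, 13.51 and 14.17 log2 in KO/HT, against 13.48, 13.63 and 13.68 log2 in WT/HT, with overlap, and an interaction of 0.23 ± 0.20 log2 (adjusted p = 0.781). A second Ankrd1 probe, detected in no kidney, had 13.18, 12.32 and 13.45 log2 in KO/HT, against 12.02, 12.29 and 12.36 log2 in WT/HT, and an interaction of 0.77 log2 (adjusted p = 0.486). KO/HT 2 lay within or next to the WT/HT range in both. Pi16, a secreted protein that restrains cardiomyocyte growth, had 9.93, 9.74 and 10.68 log2 in KO/HT, against 9.25, 9.29 and 9.51 log2 in WT/HT, where the groups did not overlap. Its kidney difference was 0.14 log2 and its interaction 0.62 ± 0.26 log2 (adjusted p = 0.521). When 1 array was left out, the interaction lay between 0.34 and 0.81 log2 for Pi16 and between 0.04 and 0.37 log2 for the brightest Ankrd1 probe. Kl, which codes for Klotho and which the study did not measure by PCR, gave no detected signal in hearts. In kidneys Kl had 11.55, 11.89 and 11.82 log2 in KO/KID, against 11.61, 11.48 and 11.48 log2 in WT/KID (-0.24 log2, adjusted p = 0.562).

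Markers of other cells were examined in the same way, and none passed the adjusted interaction test. The 6 measured erythroid markers averaged 10.8 to 11.2 log2 in KO/KID, against 10.4 to 10.7 log2 in WT/KID, and Hbb-bt, a beta globin, had an interaction of -0.79 log2. The 6 measured adipocyte markers averaged 7.50 to 7.80 log2 in KO/KID, against 7.20 to 7.57 log2 in WT/KID, with overlap between the genotypes and Car3 at -0.66 log2. Of 8 measured smooth muscle markers, Acta2 (-0.75 log2) and Myh11 (-0.55 log2) had a negative interaction at an unadjusted p under 0.05 (2 of 8, beside 9.01% of all genes), while the median was -0.04 log2 with 3 of 8 above 0. Of 9 listed adrenal cortex markers 0 had a detected probe. The part of these cells in the differences above was not tested. Lists that the study chose on these arrays, of genes differing between organs in 1 genotype only, are no independent evidence. In the knockout list 52 of 199 measured genes had an unadjusted interaction p under 0.05 (26.1%, 37 positive and 15 negative). In the wildtype list 99 of 322 did (30.7%, 52 positive and 47 negative), beside 9.01% of all genes.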

How the data were processed

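The authors hybridized labeled cRNA from 12 organs to Illumina mouse arrays and deposited a table of signal intensity per probe that was not normalized between arrays, with a detection p-value beside each intensity. A second deposited table holds the signal values that the authors quantile normalized with lumi (version not given in the sources used here), and it was used as an alternative. The number of arrays limits the precision.

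Intensities were quantile normalized over the 12 arrays and log2 transformed. A probe was kept if any 1 of the 12 arrays detected it, at a p-value under 0.01 (19780 probes). The 4 group means were fitted with limma 3.58.1 in R 4.3.3, with 8 residual and 3.91 prior degrees of freedom, and p-values were adjusted by Benjamini and Hochberg over all kept probes. Each gene was represented by the brightest of its detected probes over the 12 arrays. Probe names came from the platform annotation, updated through Entrez identifiers to RefSeq GRCm38.p6, which gave 1 symbol to 17073 kept probes, several to 9 and none to 2698. The files name no genome build, so positions are those of RefSeq alone. Where a probe was detected in no array of a group, its fold is a bound against the lowest detected signal.

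Named were called probes, the 8 largest interactions in each direction at an unadjusted p under 0.01, and the 8 opposite and 6 same-sign genes with the smallest interaction p. Genes measured by PCR in the study, Kl, and up to 4 genes per list were named as well. Members and lists were chosen with earlier results of these data known. Other list members named in the text were chosen after their values were seen. The labels do not say whether arrays of a group came from separate animals beyond 3 mice per genotype, so p-values measure the spread between these arrays. The level of the targeted gene is not reported here. The fit was tested on simulated data. Alternatives covered normalization, detection filter, replicate block, variance model and each array left out.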

Additional observations from a re-analysis of the deposited data

Results flagged for a closer look

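The test of the interaction called 20 probes, whose values (hearts minus kidneys) follow with limma's adjusted p over all kept probes. For 7 of them no heart and for 2 no kidney gave a detected signal, so that these rest on 1 organ and show no difference between 2 measured effects. Among probes detected on all 12 arrays, 5 of the 20 could be tested and 1 was called. Among named probes, the 3 Ciart probes gave 1.67, 1.62 and 0.80 log2 and all 3 had an adjusted p of 0.0305. Haghl gave 0.60 log2 (adjusted p = 0.0456) and Hsd3b2 1.11 log2 (adjusted p = 0.0353). Apob, detected in no heart, gave -0.71 log2 and Fbxl22, detected in no kidney, -0.48 log2 (adjusted p = 0.0305 each).

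Among unnamed probes that were lower in KO/KID than in WT/KID, ILMN_1218079 gave 1.20 log2 (adjusted p = 0.00401), ILMN_1231472 0.87 log2 (adjusted p = 0.00411) and ILMN_1222988 1.72 log2 (adjusted p = 0.0098). ILMN_1252983 gave 1.81 log2 (adjusted p = 0.00998), ILMN_1249362 1.52 log2 (adjusted p = 0.0219) and ILMN_1231568 0.88 log2 (adjusted p = 0.0326). Among those higher in KO/KID, ILMN_1220577 gave -1.11 log2 (adjusted p = 0.00104), ILMN_1247185 -1.26 log2 (adjusted p = 0.00938) and ILMN_2617005 -1.20 log2 (adjusted p = 0.0102). ILMN_2469743 gave -1.38 log2 (adjusted p = 0.0174), ILMN_2677207 -1.79 log2 and ILMN_2463573 -0.80 log2 (adjusted p = 0.0305 each). ILMN_2455192, detected in no knockout array of either organ, gave -0.67 log2 (adjusted p = 0.0098), a difference between 2 lower bounds whose size and direction are not measured.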

How the results depend on the processing

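Counts depended on the processing more than directions did. The 20 interaction calls became 11 with the authors' normalized values, 11 without a filter, 1 among probes detected on all 12 arrays (where 5 of the 20 could be tested) and 12 with a replicate block that fixed the mouse as numbered, although the heart and kidney of 5 of the 6 numbered mice did not match in their sex-linked transcripts. With the number as a fixed replicate block the counts were 14 for the interaction, 8 for hearts, 82 for kidneys and 60 for opposite signs, and with the mouse as a random block 21, 13, 108 and 66. Same-numbered arrays did not deviate together (r from -0.20 to 0.21 over 18 pairs, 4 of them over 0.1), so the numbers were not taken as pairs. With arrays only centred on their median, hearts gave 5 calls, kidneys 2544 and opposite signs 31. With organs normalized apart, hearts gave 8 and kidneys 171. Among probes detected on all 12 arrays, hearts gave 7, kidneys 45 and opposite signs 37, and without a filter 134 probes had opposite signs. The heart count was 21 with neqc, 25 with a trended and robust prior (41 opposite) and 3 with heart arrays alone. The kidney count was 564 with array weights and 32 with kidney arrays alone. Leaving out 1 array gave 7 to 25 interaction calls, 4 to 116 heart calls (116 without KO/HT 2, 33 without KO/HT 1, 4 without WT/HT 3, 7 without WT/HT 2 and 8 without WT/KID 1), 59 to 134 kidney calls (59 without WT/KID 2, 63 without KO/KID 3 and 69 without KO/KID 2) and 39 to 121 opposite probes. None of the 20 called probes changed sign in any of these fits. Of the values of single genes and lists' members under alternatives, 2382 kept direction and side of the threshold, 170 no longer passed, 21 passed newly and 3 changed sign, which were Hsd11b2 (-0.0070 log2) and Plgrkt (-0.051 log2) without quantile normalization and Hspa8 (-0.015 log2) as the mean of its probes. Leaving out probes of the X and Y chromosomes, an alternative added after seeing the data, gave 21 interaction calls, 20 of them among the 20. The cause of these shifts was not tested.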

Other observations

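Among other markers, Lgals3, the galectin of macrophages, had an interaction of 0.79 log2, while 7 of the 10 measured macrophage markers were below 0, with a median of -0.25 log2. Of 9 measured endothelial markers 8 were below 0, with a median of -0.16 log2, and Pecam1, the adhesion molecule of endothelial junctions, stood at -0.31 log2. Their average was 9.45 to 9.69 log2 in KO/HT, against 9.67 to 9.72 log2 in WT/HT. Of 10 fibroblast markers 6 were above 0, with a median of 0.02 log2, and at an unadjusted p under 0.05 Pi16 was positive (0.62 log2) and Gsn, the actin-severing gelsolin, negative (-0.56 log2). None of these genes passed the adjusted test.

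Among the 15 probes that correlated with Erich5 over the kidneys were also the gene models Gm10125 and Gm7609 and 4 unnamed probes, and 98 of all kept probes correlated with Erich5 at r of at least 0.95 over the 6 kidneys. These correlations share the same 6 arrays and are descriptions.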
